A study of Rattus norvegicus with 3 samples.

Results

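The miR-200 family is a group of 5 related microRNAs, miR-200a, miR-200b, miR-200c, miR-141 and miR-429. Its members were found here by name, as every deposited row whose mature name, without species prefix and arm, is one of these, bovine-named rows left aside. This gave 12 of 1480 rows, 7 with a rat prefix and 5 with a human, marmoset or opossum prefix, and no bovine-named row carried a family name. The data are small RNA libraries of extracellular vesicles, the membrane particles that cells shed, collected from medium of wild-type primary rat astrocytes of newborn animals. On culture day 6 treated cells received IL-1a, TNFa and C1q, cytokines and a complement protein known to turn astrocytes inflammatory and neurotoxic. Others received IL-4, a cytokine of alternative activation, with C1q, and medium was taken 24 h after either treatment. Untreated cells received neither, and the sample labels give no culture day or time for them. Each condition is 1 library and all carry the same batch label, so no test between conditions is possible and every interval covers counting error alone. One protocol sentence speaks of RNA from the astrocytes themselves and another of vesicle RNA, so the RNA source is uncertain.

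In epithelial cells the miR-200 family represses ZEB1 and ZEB2, transcription factors that switch off E-cadherin and other junction genes. ZEB1 and ZEB2 in turn repress the miR-200 genes, and this mutual repression helps hold a cell in an epithelial or a mesenchymal state. The family is best known from epithelia and, in mouse, from olfactory neurogenesis, and it is not regarded as a marker of astrocytes. miRNAs pair with their targets mainly through the seed, bases 2 to 8 of the mature strand, and the family holds 2 seeds that differ at a single position.

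The sequences below, from RefSeq with the rat build GRCr8, show these seeds and the hairpins they lie in. Of the 7 rat-named members, 4 matched a mature entry, and rno-miR-200a-3p, rno-miR-200b-3p and rno-miR-429 are named only. The mature strands are written 5′ to 3′ with the seed in capitals, the 3p strands first because they carry nearly all of the counts.
rno-miR-200c-3p: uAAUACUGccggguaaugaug
rno-miR-141-3p: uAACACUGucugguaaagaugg
rno-miR-200b-5p: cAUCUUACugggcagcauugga
rno-miR-200a-5p: cAUCUUACcggacagugcugg
Counted from 1 at the 5′ end, with the base of miR-200c-3p given first, miR-141-3p differs from miR-200c-3p by U4C in the seed and by C9U, G11U and U17A outside it, and 17 of 21 compared positions are the same. The 5p strands of miR-200b and miR-200a share 1 seed, which no other of the 724 rat mature entries has.

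The hairpins, with the seed letters of miR-200c-3p (AAUACUG) or of miR-141-3p (AACACUG) in capitals where they occur, show how the seeds are spread over the genome. All 5 lie on the minus strand.
Mir200b, chr5:171931495-171931589: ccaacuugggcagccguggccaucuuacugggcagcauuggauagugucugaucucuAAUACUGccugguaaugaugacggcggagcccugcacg
Mir200a, chr5:171930717-171930805: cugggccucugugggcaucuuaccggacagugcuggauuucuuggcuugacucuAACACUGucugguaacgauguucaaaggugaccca
Mir429, chr5:171929682-171929766: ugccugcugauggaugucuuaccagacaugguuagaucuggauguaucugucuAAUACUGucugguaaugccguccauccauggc
Mir200c, chr4:159209965-159210033: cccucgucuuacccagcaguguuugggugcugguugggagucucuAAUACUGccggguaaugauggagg
Mir141, chr4:159209525-159209618: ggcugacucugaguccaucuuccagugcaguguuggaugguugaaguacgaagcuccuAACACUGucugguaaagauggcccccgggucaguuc
AAUACUG occurs, on the strand written, in 4 of 419 rat hairpins, 0.955% of them: Mir200b, Mir200c, Mir429 and, outside the family, Mir145. AACACUG also occurs in 4 of 419, 0.955%: Mir141, Mir200a and, outside the family, Mir3575 and Mir3587. Mir200b, Mir200a and Mir429 follow each other on chromosome 5 with 689 and 950 bases between them, inside the annotated spans of the gene Ttll10 and the long non-coding RNA LOC106182250. Mir200c and Mir141 lie 346 bases apart on chromosome 4, between Phb2 and Ptpn6. Each cluster therefore holds both seeds, but in counts cluster and seed could not be fully separated. miR-200c-3p held 8646 of the 8925 untreated 3p counts of the chromosome 4 cluster. miR-141-3p had 0 counts in both treated libraries.

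Counts named as miRNAs came to 12327301 in the IL-1a/TNFa/C1q library, 7779718 in the IL-4/C1q library and 6318839 in the untreated library. Levels are given as CPM, counts per 1e6 of these totals, with no division by length. The 4 miRNAs listed as astrocyte markers (miR-21-5p, miR-9a-5p, miR-125b-5p and miR-143-3p) together held 462217, 504110 and 454893 CPM. Their joint level was similar in all 3 libraries, but miR-21-5p alone made up 365214, 386922 and 357921 CPM of it. Among the 4, only miR-143-3p, a miRNA of smooth muscle as well, differed by 2-fold or more, with 30577 CPM after IL-1a/TNFa/C1q and 49047 CPM after IL-4/C1q against 12140 CPM untreated. The 36 values of the family rows were whole numbers, none of them split among rows.

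The family was a visible part of the untreated library and nearly gone from both treated ones. All rows together had 174 counts (14.1 CPM, 95% interval 12.1 to 16.4) in the IL-1a/TNFa/C1q library, 105 counts (13.5 CPM, 11.04 to 16.3) in the IL-4/C1q library and 18328 counts (2901 CPM, 2859 to 2943) in the untreated library. As a share of miRNA counts the IL-1a/TNFa/C1q value lay 205-fold (177 to 239.97) and the IL-4/C1q value 215-fold (177 to 263) below the untreated one. Counting the 3 rows with an unaltered mature name alone, the difference was 115-fold and 129-fold. With 1 untreated library, a low family after treatment cannot be told apart from a high family in that library, nor fewer vesicles carrying it from less of it per vesicle.

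miR-200c-3p, a strand of the AAUACUG seed group that targets ZEB1 and ZEB2, was the most abundant member of the untreated library. It had 47 counts in the IL-1a/TNFa/C1q library, 38 in the IL-4/C1q library and 8646 in the untreated library, or 3.81, 4.88 and 1368 CPM. It ranked 468 of the 708 names above 0 with IL-1a/TNFa/C1q and 452 of 664 with IL-4/C1q, against 66 of 814 without treatment. A name from the upper ranks of the untreated library was thus among the scarcer ones after either treatment, 359-fold (269.6 to 489) and 280.1-fold (204 to 396) lower.

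miR-200b-3p, which has the same seed and lies on the other chromosome, was second. rno-miR-200b-3p had 67 counts after IL-1a/TNFa/C1q, 36 after IL-4/C1q and 6009 in the untreated library, or 5.44, 4.63 and 951 CPM. It was 175-fold (138 to 226) and 206-fold (148 to 294) lower. miR-200a-3p, its cluster neighbour with the AACACUG seed, had 43, 26 and 2852 counts in the same order of libraries, or 3.49, 3.34 and 451 CPM. Its difference was 129-fold (95.8 to 179) after IL-1a/TNFa/C1q and 135-fold (91.98 to 207) after IL-4/C1q. These 3 strands made up nearly all of what remained: each kept between 26 and 67 counts in a treated library. miR-200a-3p had 0.642 counts per count of miR-200b-3p after IL-1a/TNFa/C1q (0.427 to 0.955) and 0.722 after IL-4/C1q (0.419 to 1.23), against 0.475 in the untreated library (0.454 to 0.496), so these cluster neighbours kept their ratio within counting error in the IL-4/C1q library and in the IL-1a/TNFa/C1q library alike.

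**Figure D1:**
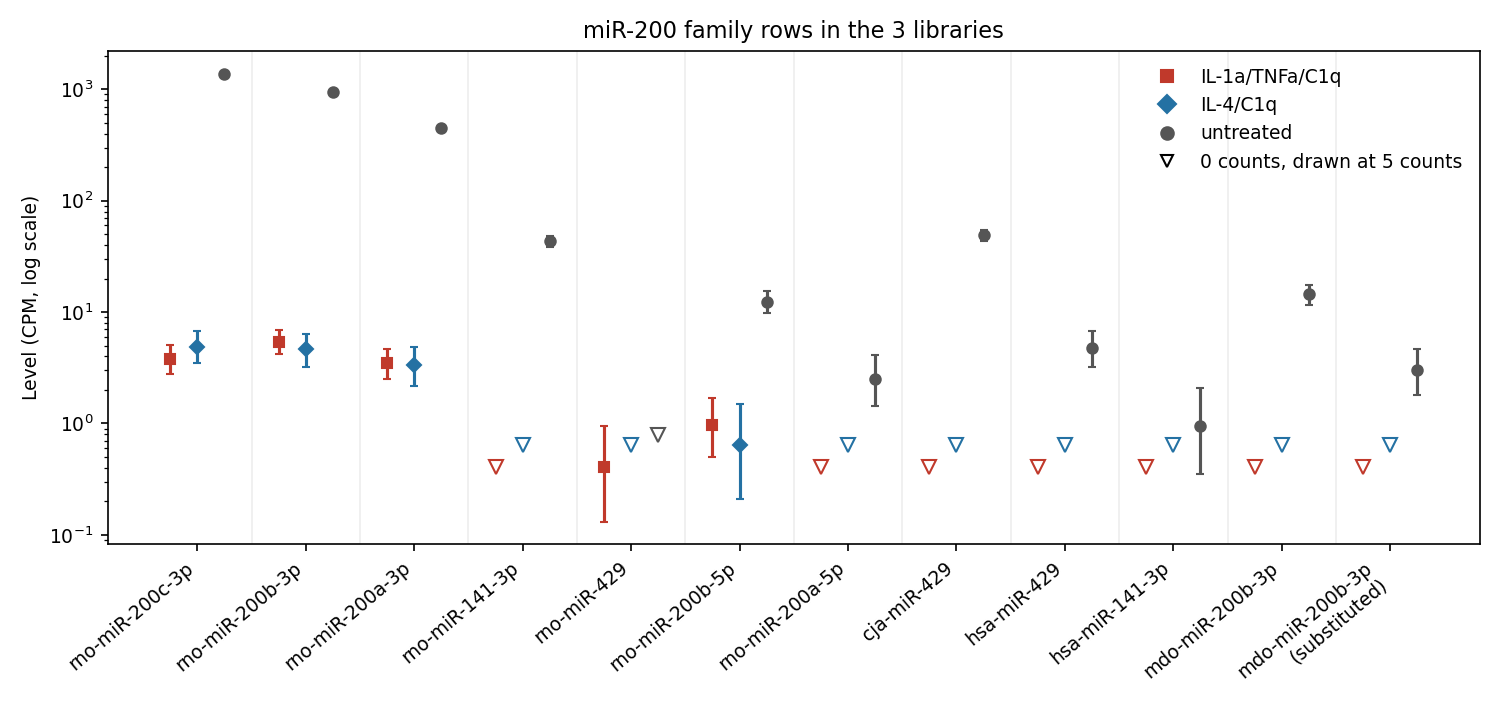
Level of each of the 12 family rows on a log axis of CPM, with squares for IL-1a/TNFa/C1q, diamonds for IL-4/C1q, circles for the untreated library and bars for exact 95% counting intervals. Open triangles mark rows at 0 counts, drawn at the level that 5 counts would have. In the untreated library the rows reach from 0 to 1368 CPM, while no treated value passes 5.44 CPM.

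miR-141-3p is transcribed with miR-200c and shares its seed with miR-200a. rno-miR-141-3p had 0 counts in the IL-1a/TNFa/C1q library, 0 in the IL-4/C1q library and 273 (43.2 CPM) in the untreated library, and hsa-miR-141-3p had 0, 0 and 6. Against a floor of 5 counts, the lowest whole value that most rows hold, rno-miR-141-3p was at least 107-fold lower after IL-1a/TNFa/C1q and at least 67.2-fold lower after IL-4/C1q. In the untreated library miR-200c-3p had 31.7 times the counts of miR-141-3p (28.1 to 35.9), although both come from hairpins of 1 cluster. At that ratio the 47 and 38 treated counts of miR-200c-3p would leave miR-141-3p below the floor, so its 0 values show no difference from miR-200c-3p at this depth.

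miR-429, the remaining member with the AAUACUG seed, was split over rows of 3 species. The rat-named rno-miR-429 held 5 counts in the IL-1a/TNFa/C1q library, 0 in the IL-4/C1q library and 0 in the untreated library. The marmoset-named cja-miR-429 held 0, 0 and 308, and the human-named hsa-miR-429 0, 0 and 30. The low rat-named row thus holds counts only where the other rows of that name have 0. Its 5 counts against 0 untreated show no direction, with a ratio interval from 0.470 upward without limit. Summed over species, miR-429 had 5 counts after IL-1a/TNFa/C1q against 338 untreated, 132-fold lower (55.96 to 409), and 0 after IL-4/C1q, at least 83.2-fold lower. The opossum-named mdo-miR-200b-3p and its substituted form had 91 and 19 untreated counts and 0 in both treated libraries. All 5 rows of other species together held 454 counts in the untreated library alone, 2.48% of its family counts, and 0 in the treated ones.

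The members were then set against all miRNA names by a size rule: a difference of 2-fold or more, a 95% counting interval that does not hold 1, and 50 counts or more in the library where the name was higher. Of the 12 rows 7 had enough counts, each of them in the untreated library, and all 7 were lower in both comparisons with it. Among all names, 110 of 515 (21.4%) were lower after IL-1a/TNFa/C1q and 116 of 490 (23.7%) after IL-4/C1q, with 68 and 64 higher. With DESeq2 size factors the IL-4/C1q split was 99 lower and 85 higher. Rows that met the minimum only through the untreated library had little room to differ otherwise, so this count is a description. From the lowest ratio up, miR-200c-3p held rank 15 after IL-1a/TNFa/C1q, directly behind the 14 names at 0 there, and rank 14 after IL-4/C1q, behind 12 names at 0 and miR-451-5p. miR-200b-3p and miR-200a-3p held ranks 17 and 18 of 515 after IL-1a/TNFa/C1q and ranks 15 and 16 of 490 after IL-4/C1q.

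**Figure D2:**
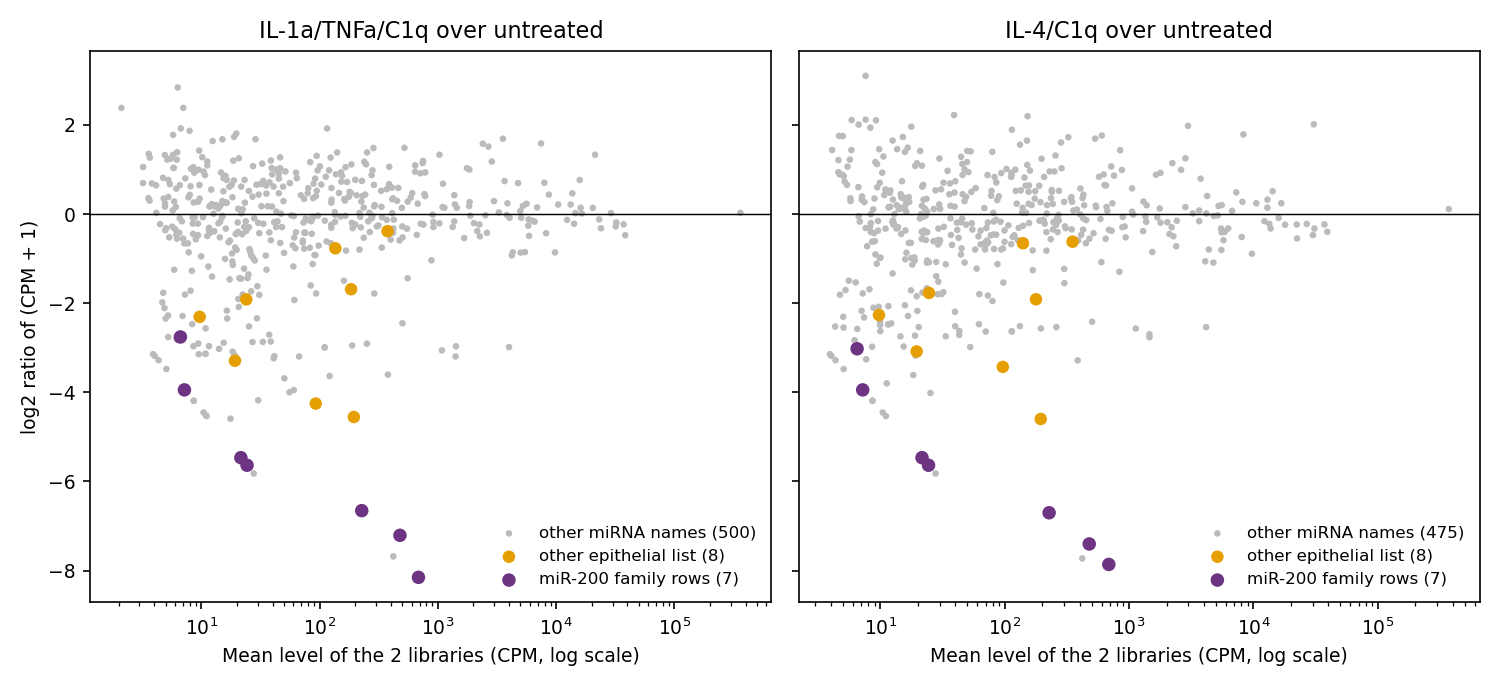
The log2 ratio of CPM + 1 for IL-1a/TNFa/C1q over untreated (left) and IL-4/C1q over untreated (right) against the mean CPM of the 2 libraries on a log axis, for each miRNA name that reached 50 counts in one of the pair. The 7 family rows (purple) and 8 members of a list of other epithelial miRNAs (orange) lie below 0, among 500 and 475 other names (grey).

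Between the treatments the family did not separate. Its summed level was 13.5 CPM after IL-4/C1q against 14.1 CPM after IL-1a/TNFa/C1q, a ratio of 0.956 (0.743 to 1.23). miR-200b-3p, the only 1 of the 12 rows with at least 50 counts in either, had a ratio of 0.851 (0.551 to 1.295). It did not pass the size rule, and the other rows had too few counts for it. Of all 467 tested names 2.36% passed, so 1 tested row says little. miR-200c-3p had 1.28 (0.813 to 2.01) and miR-200a-3p 0.958 (0.565 to 1.595). At 26 to 67 counts a row, these intervals together reach from 0.551 to 2.01, so differences within that range were not detectable.

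The clusters were not lowered to the same extent after IL-1a/TNFa/C1q, while after IL-4/C1q the intervals of their differences overlap. The chromosome 5 cluster (miR-200b, miR-200a and miR-429, 3p strands) had 115 counts after IL-1a/TNFa/C1q, 62 after IL-4/C1q and 9309 in the untreated library, 158-fold (131 to 191) and 185-fold (144 to 241) lower. The chromosome 4 cluster (miR-200c and miR-141) had 47, 38 and 8925, 370.5-fold (278 to 505) and 289-fold (211 to 409) lower. The chromosome 5 cluster thus held 71.0% of the 3p counts after IL-1a/TNFa/C1q (63.3 to 77.8%), 62.0% after IL-4/C1q (51.7 to 71.5%) and 51.1% in the untreated library (50.3 to 51.8%). The interval of the IL-1a/TNFa/C1q library lies apart from the untreated one, and that of the IL-4/C1q library overlaps it only at its lower end. In rat-named rows alone the untreated share was 49.8% (49.1 to 50.6%), and both treated intervals, which stay as given, lie above it. Between the most abundant strand of each cluster, miR-200c-3p had 0.701 counts per count of miR-200b-3p after IL-1a/TNFa/C1q (0.473 to 1.03) and 1.06 after IL-4/C1q (0.651 to 1.71), against 1.44 in the untreated library (1.39 to 1.49). The IL-4/C1q interval of this ratio holds the untreated value, and the IL-1a/TNFa/C1q interval does not.

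The seed groups shifted too, but miR-200c-3p enters this comparison and that of the clusters alike. Its share of the 3p counts was 29.0% after IL-1a/TNFa/C1q, 38.0% after IL-4/C1q and 47.4% in the untreated library. Within the chromosome 5 cluster, miR-200a-3p and miR-200b-3p, which differ in seed, kept their ratio within counting error. The AAUACUG group (miR-200b, miR-200c and miR-429) had 119 counts after IL-1a/TNFa/C1q, 74 after IL-4/C1q and 15103 in the untreated library, 248-fold (207 to 299) and 251-fold (200.03 to 320.2) lower. The AACACUG group (miR-200a and miR-141) had 43, 26 and 3131, 142-fold (105 to 197) and 148-fold (101 to 227) lower. The intervals of the groups lie apart after IL-1a/TNFa/C1q and overlap after IL-4/C1q. The first seed took 73.5% of the 3p counts after IL-1a/TNFa/C1q (66.0 to 80.1%), 74.0% after IL-4/C1q (64.3 to 82.3%) and 82.8% in the untreated library (82.3 to 83.4%). It was the larger group in every library, with a lower share after both treatments, and the IL-4/C1q interval ends where the untreated one begins.

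The arms differed as well. 5p rows were found for miR-200b and miR-200a. rno-miR-200b-5p, the strand opposite miR-200b-3p, had 12 counts after IL-1a/TNFa/C1q, 5 after IL-4/C1q and 78 in the untreated library. It was 12.7-fold (6.86 to 25.6) and 19.2-fold (7.89 to 60.8) lower, against 175-fold and 206-fold for the 3p strand of the same hairpin. The 5p strand was therefore 15.2% of rat-named miR-200b counts after IL-1a/TNFa/C1q (8.10 to 25.03%) and 12.2% after IL-4/C1q (4.08 to 26.2%), against 1.28% in the untreated library (1.01 to 1.60%). Neither treated interval touches the untreated one, though the 5p values are 12 and 5 counts, and 5 is the lowest value most rows hold. rno-miR-200a-5p had 0, 0 and 16 counts, and its 5p share of at most 8.22% and 13.2% (the upper bounds at 0 counts) cannot be told apart from 0.558% in the untreated library. Over the family, 5p rows held 6.90%, 4.76% and 0.513% of the counts in the same order of libraries.

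**Figure D3:**
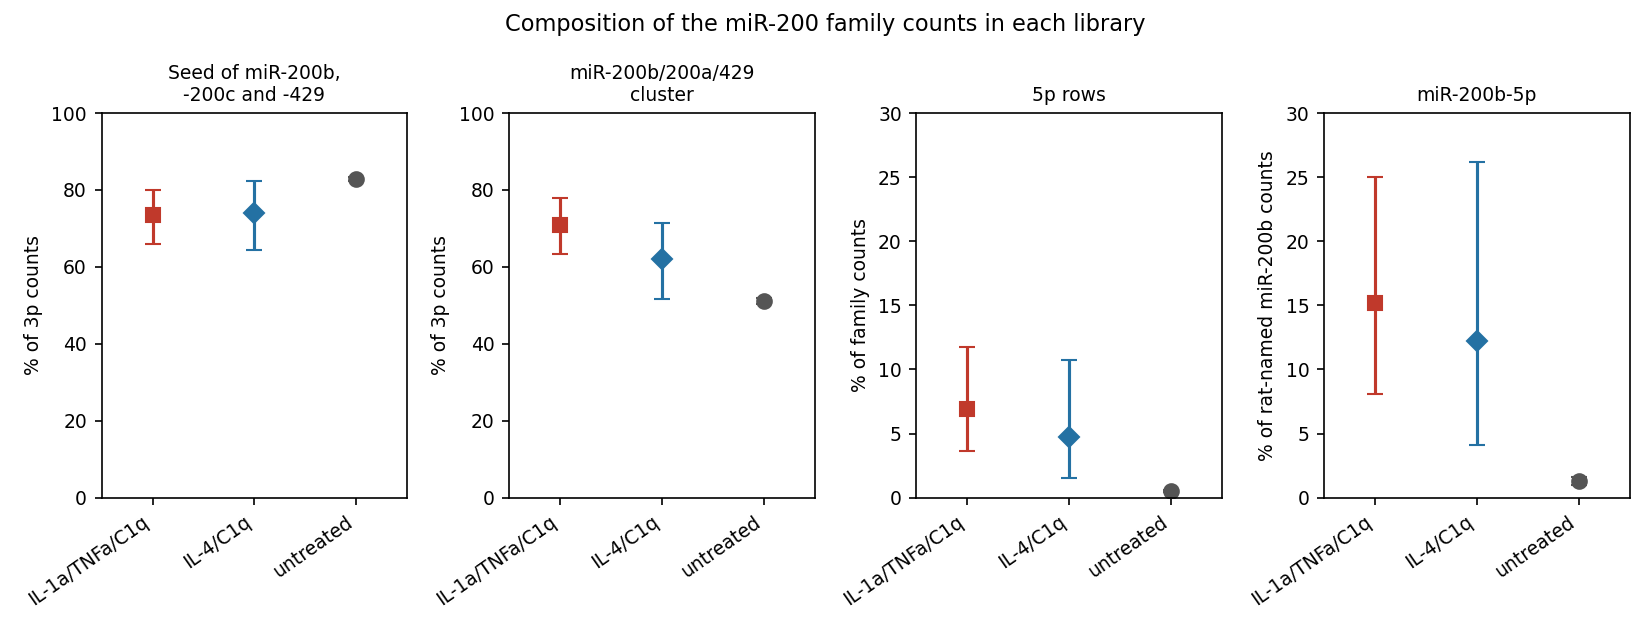
Shares within the family counts of each library, with exact 95% counting intervals: the miR-200b, miR-200c and miR-429 seed and the miR-200b, miR-200a and miR-429 cluster as % of 3p counts, 5p rows as % of all family counts, and miR-200b-5p as % of rat-named miR-200b counts. miR-200b-5p stands at 15.2% and 12.2% in the treated libraries and 1.28% in the untreated library.

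Epithelial miRNAs outside the family were mostly lower too, each by less than the family sum. Of a list of 10 (miR-203a and miR-203b, miR-205, the miR-183, miR-96 and miR-182 cluster, miR-375, miR-192, miR-194 and miR-215), 8 had enough counts and 6 were lower in each comparison, none higher. Among all tested names, 21.4% were lower after IL-1a/TNFa/C1q and 23.7% after IL-4/C1q. Of the 6, miR-182 and miR-183-5p reached 50 counts in the untreated library alone and had little room to differ otherwise. miR-205, which also represses ZEB1 and ZEB2, had 185 counts after IL-1a/TNFa/C1q, 113 after IL-4/C1q and 2369 untreated, 24.98-fold (21.5 to 29.2) and 25.8-fold (21.4 to 31.5) lower. miR-203a-3p, a keratinocyte differentiation miRNA, had 87.0, 74.3 and 282 CPM. miR-192-5p and miR-194-5p, known from intestine, liver and kidney, stayed within 2-fold, at 326 and 100.3 CPM after IL-1a/TNFa/C1q, 277 and 109 CPM after IL-4/C1q, and 425 and 172 CPM in the untreated library. The list's summed level was 554, 510 and 1531 CPM, 2.76-fold (2.68 to 2.85) and 3.003-fold (2.89 to 3.12) lower, and neither interval overlaps that of the family. miR-192-5p was the largest part of that sum in every library. The median log2 ratio of CPM + 1 over the list was −1.80 and −1.84, beside −0.07 and −0.17 over all tested names. The 5 names also listed as epithelial markers were miR-203a-3p, miR-205, miR-182, miR-183-5p and miR-375-3p. All 5 were lower in both comparisons, and their sum was 7.66-fold (7.23 to 8.13) and 8.03-fold (7.48 to 8.64) lower. This shorter list leaves out miR-192-5p and miR-194-5p, the tested names that were not lower, and also miR-215, which was. Both lists were chosen with earlier results of these data known.

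**Figure D4:**
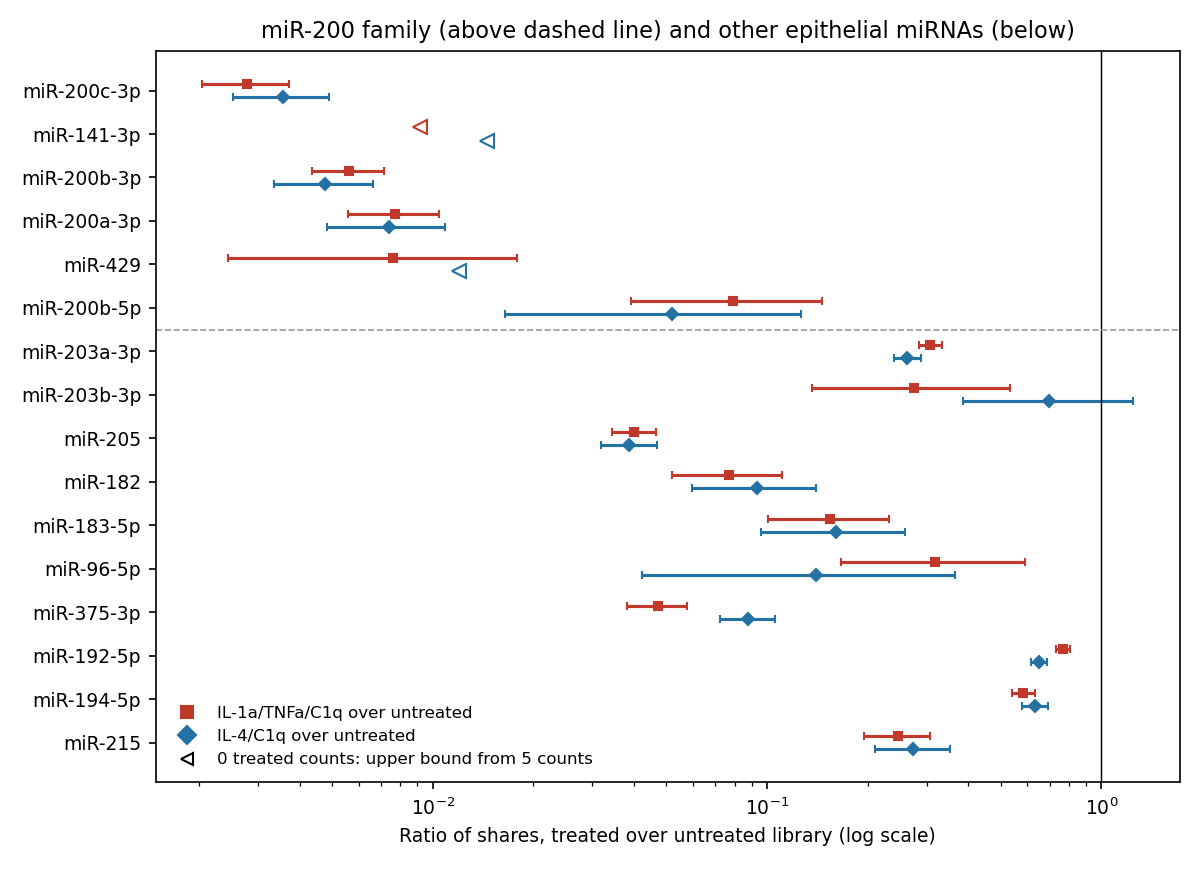
Ratio of shares of the treated over the untreated library on a log axis, squares for IL-1a/TNFa/C1q and diamonds for IL-4/C1q, with exact 95% counting intervals; open triangles are upper bounds for 0 treated counts. The 3p strands of the family lie near 0.01 or below, miR-200b-5p at 0.0789 and 0.0521, next to miR-205 (0.0400 and 0.0387) and the other epithelial miRNAs.

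Other miRNAs linked to the epithelial-mesenchymal transition summed to 461189, 477332 and 468121 CPM in the IL-1a/TNFa/C1q, IL-4/C1q and untreated libraries, most of it miR-21-5p. Of 14 measured, 1 was lower and none higher after IL-1a/TNFa/C1q, and 1 was lower and 1 higher after IL-4/C1q. The share lower among all tested names was 21.4% after IL-1a/TNFa/C1q and 23.7% after IL-4/C1q. Named after their values were seen, the lower one was miR-10b-5p, with 277, 374 and 2546 CPM in the IL-1a/TNFa/C1q, IL-4/C1q and untreated libraries, and the higher one miR-145-5p, with 117, 198 and 66.8 CPM. miR-21-5p, miR-9a-5p, miR-30a-5p and miR-221-3p, the most abundant of them, had ratios between 0.720 and 1.38. The list's median was −0.12 after IL-1a/TNFa/C1q and −0.25 after IL-4/C1q.

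The names whose pattern was most like that of the family were sought among 302 with at least 200 untreated counts, by the distance between their pairs of log2 ratios (CPM + 1) over the untreated library, which both ratios share. The nearest was rno-miR-451-5p, an erythroid miRNA, at a distance of 0.13, with 38, 23 and 5291 counts. hsa-miR-934 followed at 2.54 (0, 0 and 351 counts), then miR-205 at 4.30, miR-144-5p, transcribed with miR-451, at 5.02, miR-375-3p, of endocrine and epithelial cells, at 5.37 and miR-10a-5p at 5.91. For hsa-miR-934, at 0 treated counts, the added 1 CPM caps both log2 ratios at −5.82, so its distance reflects its untreated level. Beside the family, all 4 erythroid markers were lower in both treated libraries, with a summed level of 158, 164 and 1744 CPM, and miR-144-3p at 0 after IL-1a/TNFa/C1q. Only miR-486 of these reached 50 counts in a treated library, so the others had little room to differ otherwise. The liver miRNAs miR-122-5p and miR-192-5p summed to 1222, 1499 and 7529 CPM, the myeloid miR-223 and miR-142 rows to 8.76, 62.2 and 173.8 CPM, and bovine-named rows to 595, 752 and 4399 CPM. By the size rule 1 of the 2 liver miRNAs, miR-122-5p, was lower in each comparison. Of 2 myeloid rows with enough counts, 2 were lower after IL-1a/TNFa/C1q and 1 after IL-4/C1q. The neuronal markers summed to 4823, 4574 and 8298 CPM, and the mesenchymal ones, the miR-143, miR-145, miR-199a and miR-214 strands, ran the other way at 45695, 67138 and 17285 CPM. Most of the mesenchymal sum was miR-143-3p, with 30577, 49047 and 12140 CPM, which is also on the astrocyte list. miR-214-3p did not pass the size rule in either comparison. Of 4 neuronal markers, 1 was lower after IL-1a/TNFa/C1q and 2 after IL-4/C1q, while miR-138-5p had ratios of 1.69 and 1.34. Of 5 mesenchymal strands, 3 were higher after IL-1a/TNFa/C1q and 4 after IL-4/C1q. Over all names, 110 of 515 were lower and 68 higher after IL-1a/TNFa/C1q, and 116 of 490 lower and 64 higher after IL-4/C1q. The part of these in the family's difference was not tested.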

How the data were processed

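Each of the 3 libraries came as 1 table of 1480 rows, holding estimated counts (raw, per the file headers) and a signal (norm, per the file headers). The deposited signal was the estimated count times 1 constant per library, 0.684, 1.14 and 1.25 for the IL-1a/TNFa/C1q, IL-4/C1q and untreated libraries, and no source used here says how it was chosen. For aligner, counter, miRNA database and build: not given in the sources used here. Predicted candidates (372 rows holding 0.036%, 0.034% and 0.066% of counts) were dropped. Summing by mature name, substituted forms apart, gave 919 names.

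Ratios are ratios of shares of miRNA-named counts, with exact conditional binomial 95% intervals, and shares have Clopper-Pearson intervals (scipy 1.17.1). The ratio intervals were tested on simulated data, with changes set only in names with many untreated counts. The share intervals were not tested in this way. Counts were rounded for both kinds of interval. They cover counting error only, since PCR copies are not independent molecules. Bounds against 0 counts use a floor of 5, because 20 of 693, 13 of 630 and 30 of 777 whole values above 0 were lower. The alternatives used TMM factors (edgeR 4.0.16), size factors (DESeq2 1.42.0), the authors' constants, other totals, minimums and row choices. Totals without bovine-named rows and 3p rows alone were added after the data were seen.

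The members, the epithelial and transition lists, the marker lists (astrocyte, neuron, erythroid, liver, mesenchymal, epithelial and myeloid) and the rules were chosen with earlier results of these data known. Every member is named; other names are the 6 nearest in pattern and up to 4 per list by mean CPM, and the rest were named after their values were seen.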

Additional observations from a re-analysis of the deposited data

How the results depend on the processing

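The 311 alternatives covered 59 results, and 10 of them in each comparison bore on the family's ratio over the untreated library. In all of those the ratio kept its direction and its side of the size rule. With other scalings the family was between 189.9- and 207-fold lower after IL-1a/TNFa/C1q and between 190.4- and 216-fold lower after IL-4/C1q, and between 115- and 219.6-fold and between 129- and 224-fold over all row choices and scalings. The number of family rows past the rule stayed between 5 and 8 in both comparisons. With the authors' constants the ratio of IL-4/C1q over IL-1a/TNFa/C1q turned to 1.01 for the family (0.784 to 1.29) and to 1.01 for miR-200a-3p, both within counting error of 1. In rat-named rows alone the chromosome 5 cluster held 49.8% of the untreated 3p counts (49.1 to 50.6%), which puts the IL-4/C1q interval apart from the untreated one. Over all names, a 4-fold minimum left 84 past the rule after IL-1a/TNFa/C1q, 85 after IL-4/C1q and 2 between the treatments, where a minimum of 20 counts gave 25 and one of 100 counts gave 5; these follow from the stricter or looser rule. A floor of 3 counts would raise the bound of rno-miR-141-3p to 178-fold after IL-1a/TNFa/C1q and 112-fold after IL-4/C1q. No paired analysis was possible because each condition has 1 library, and no library could be left out for the same reason. Depth limits the treated side, where no family row has more than 67 counts.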
